A study of Mus musculus with 203 samples.

Results

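The comparison described here asked how the response of the mouse lung parenchyma to house dust mite (HDM) extract differed between a long and a short course of exposure. Its members were chosen by the labels alone: 42 RNA-seq libraries, all of lung parenchyma, in 4 groups, beside 41 airway libraries of the same exposures and 120 libraries of other exposures in the series. Mice of the 3wk HDM group (10 libraries) received HDM extract intranasally 5 days a week for 3 weeks, and those of the 3wk PBS group (12 libraries) received phosphate-buffered saline. Mice of the 11wk HDM.AIR group (10 libraries) went on to receive HDM 3 times a week from week 4 to week 11 while they breathed normal air, and the 11wk PBS.AIR group (10 libraries) received PBS and air. All mice were female Balb/C with a labelled age of 18-20 weeks at both durations, and neither cigarette smoke nor dexamethasone was given to these groups. The parenchyma was the lung tissue left after the larger airways had been dissected away, so each library averages over alveolar, vascular, immune and small-airway cells.

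The measure reported for each gene is the duration difference, the effect of HDM at 11 weeks (11wk HDM.AIR less 11wk PBS.AIR) less the effect at 3 weeks (3wk HDM less 3wk PBS), on a log2 scale and with its standard error (SE). A negative value means a lower HDM effect after 11 weeks. A gene passed when its Benjamini-Hochberg adjusted p from limma, over all 16955 genes tested, was under 0.05, and it was called when it passed with a size of at least 1. For a gene that passed, the HDM effect is said to have faded when it kept its sign and was smaller at 11 weeks, to have grown when it kept its sign and was larger, and to have turned when its sign differed between the durations. The 2 effects themselves are given as a description, with no test. Levels are normalised CPM, counts scaled to the total of each library, given as the lowest, the median and the highest library of a group.

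House dust mite extract is a common aeroallergen that carries proteases and microbial products. In sensitised mice it draws eosinophils, neutrophils, monocytes and lymphocytes into the lung, and type 2 cytokines act on the epithelium, on macrophages and on B cells, which switch antibody class and mature into plasma cells. The chemokines CXCL9, CXCL10 and CXCL11 are made in response to interferon gamma and recruit CXCR3-bearing T cells.

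The groups differed in more than the length of exposure. The 3-week groups had no air arm, the dosing schedule changed after week 3, and the times of dissection differed, so duration, schedule, handling and time cannot be told apart. Totals ran from 18756105 to 35913730 counts per library, and every pair of libraries within a group differed by more than sampling noise. The 3wk PBS controls stood apart from the other 3 groups: the 13 mitochondrial mRNAs took 5.87 to 7.80% of their counts (median 6.77%), against medians of 3.75% in 3wk HDM, 3.94% in 11wk PBS.AIR and 3.40% in 11wk HDM.AIR. Genes for ribosomal proteins took a median of 4.58% in 3wk PBS, 3.69% in 3wk HDM, 2.67% in 11wk PBS.AIR and 2.87% in 11wk HDM.AIR. Transcript length moved with the comparison, since of 2096 genes with transcripts over 6000 bases 15.8% passed higher and 38.1% lower, while of 1769 with transcripts under 1500 bases 38.1% passed higher and 10.9% lower. Counts are therefore also given from a fit with the mitochondrial mRNA share of each library as a covariate (the covariate fit), added after seeing the data. Each group keeps its own mean in that fit, so the 3wk PBS libraries stay in the comparison. Because their shares lie above those of all other libraries, adjusting to a common share extends the within-group relation beyond the shares observed. Values from the covariate fit depend on that extension, and the part of the mitochondrial share in the differences was not tested. When the trend of each library with transcript length and GC content was removed instead, 8577 genes passed and 1699 were called.

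**Figure D1:**
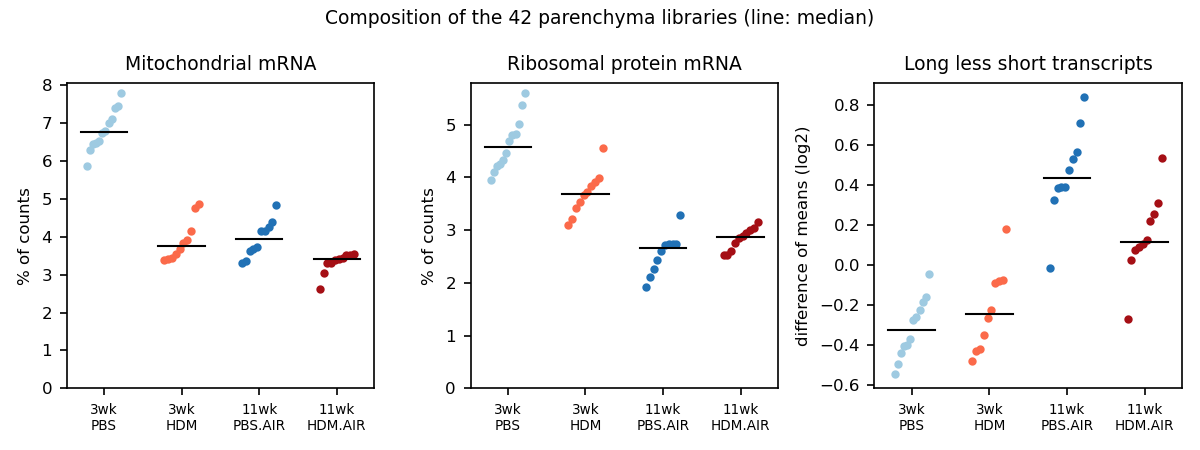
Each point is 1 of the 42 parenchyma libraries, grouped by exposure and duration along the x axis, and each line is the group median. The y axes give the mitochondrial mRNA share and the ribosomal protein share in percent of counts and the log2 difference in level between long and short transcripts, and the 3wk PBS libraries lie above all other groups in mitochondrial mRNA, from 5.87% to 7.80%.

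Markers of the labelled tissue were present in every group. The 15 alveolar type II genes summed to between 27800 and 51200 CPM, and none of them was at or near 0. Some libraries stood apart from their group in markers of other tissues. In 1 library of 11wk HDM.AIR (X70) 12 skeletal muscle genes summed to 4450 CPM, against a median of 4.87 CPM in its group, and another (X90) had the highest ciliated cell sum of all, 1030 CPM. One 11wk PBS.AIR library (X126) had 434 CPM of Ighg1, where the median of its group was 7.07. In 3wk PBS 1 library (X62) had a mean log2(CPM + 0.5) of 3.68 over 6 skeletal muscle genes, against a median of 0.18, and 14 squamous and basal epithelium genes summed to between 6.46 and 295 CPM in 3wk HDM (median 57.8). Without X70 and X90, 8163 genes passed.

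The HDM effect of many genes differed between the durations, most often because it was smaller after 11 weeks. Of 16955 genes, 8441 (49.8%) passed, 4015 (23.7%) with a higher and 4426 (26.1%) with a lower effect at 11 weeks. The calls with a size of at least 1 numbered 1012 higher (5.97%) and 775 lower (4.57%), and the median difference over all genes was 0.008. Among the genes that passed, the effect of 4608 faded (2456 rises and 2152 falls at 3 weeks), that of 968 grew and that of 2865 turned. Much of this came through the controls: the PBS groups differed more between the durations than the HDM groups did in 63.5% of the genes that passed higher and in 70.6% of those that passed lower. With the mitochondrial share as a covariate 4407 genes passed, 1823 higher and 2584 lower.

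**Figure D2:**
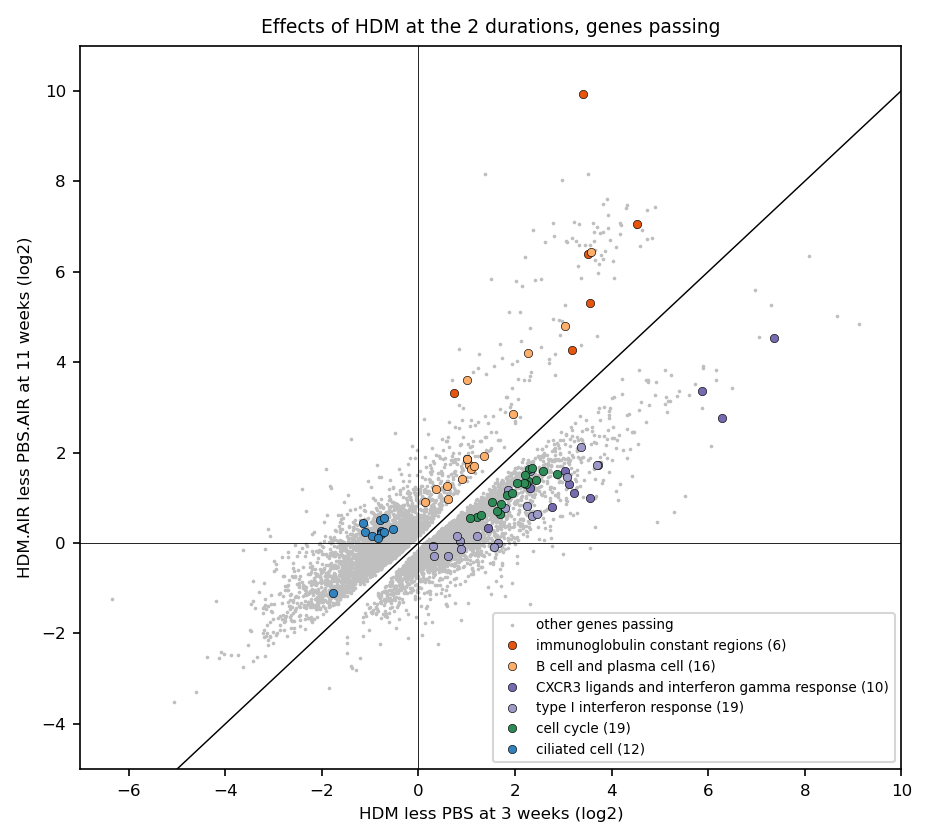
The x axis is the log2 effect of HDM at 3 weeks and the y axis that at 11 weeks, each point is a gene that passed, and coloured points are members of the gene lists named in the key, with the number passing in parentheses. Points below the diagonal line had a lower effect at 11 weeks, as for Nos2 (6.28 and 2.76), and points above it a higher one, as for Ighg1 (3.40 and 9.92).

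The interferon gamma programme had a much smaller HDM effect at 11 weeks (median 1.49) than at 3 weeks (median 3.08). Of the 14 genes tested on the list of CXCR3 ligands and interferon gamma responses, 10 passed lower, against 26.1% of all genes, and none passed higher. All 10 were called, and each kept a positive effect that was smaller at 11 weeks. The list median of the difference was -1.88, and the HDM groups changed more (-1.61) than the PBS groups (0.16). Fewer cells making these transcripts and less RNA per cell cannot be told apart in such bulk samples. With the mitochondrial share as a covariate 5 passed lower, with a median of -0.55, and with the length and GC trend removed 10 did, with a median of -1.97.

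Nos2 (chr11:78920787-78960254, GRCm38) encodes the inducible nitric oxide synthase of activated macrophages. It stood at 1.76, 2.41 and 4.69 CPM in 3wk PBS, 80.9, 228 and 380 in 3wk HDM, 4.29, 6.03 and 6.94 in 11wk PBS.AIR and 13.6, 41.5 and 118.4 in 11wk HDM.AIR. All HDM libraries lay above all controls at either duration, and the 2 HDM groups overlapped only between 80.9 and 118.4 CPM. The effect was 6.28 ± 0.45 at 3 weeks and 2.76 ± 0.36 at 11 weeks, a difference of -3.52 ± 0.58 (adjusted p = 3.76e-06). For Cxcl9, the CXCR3 ligand most closely tied to interferon gamma, levels were 1.56, 2.22 and 5.29 CPM in 3wk PBS, 71.5, 381 and 1025 in 3wk HDM, 0.608, 2.77 and 7.57 in 11wk PBS.AIR and 19.1, 53.4 and 179.3 in 11wk HDM.AIR. Its effect went from 7.36 ± 0.62 to 4.53 ± 0.59, a difference of -2.83 ± 0.86 (adjusted p = 0.00579), which in the covariate fit was -0.17 and did not pass. Cxcl9 also missed the threshold when only genes of at least 10 CPM in 9 libraries were tested. Cxcl10, a related ligand, reached 18.6, 62.2 and 155.5 CPM in 3wk HDM and 2.995, 8.40 and 52.6 in 11wk HDM.AIR, from 0.621, 0.960 and 1.26 in 3wk PBS and 0.574, 1.01 and 2.14 in 11wk PBS.AIR. The HDM groups overlapped between 18.6 and 52.6 CPM, and the difference of -2.52 ± 0.99 (adjusted p = 0.0319) no longer passed without 1 library of 11wk PBS.AIR (X106), where the adjusted p was 0.0542. It also missed the threshold with the CPM minimum of 10, with the ribosomal protein share as a covariate and in the covariate fit, where its value was 0.029 (adjusted p = 0.986). Cxcl11, the remaining CXCR3 ligand, did not pass, although it did with edgeR and with DESeq2. Leaving out single libraries gave Cxcl11 differences of -3.69 to -3.06, and the covariate fit gave -0.34 (adjusted p = 0.868).

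Genes that act inside the cell after interferon gamma followed with tighter errors. Gbp2b and Gbp2, guanylate-binding proteins that attack the vacuoles of intracellular microbes, had differences of -2.13 ± 0.29 and -1.97 ± 0.26 (adjusted p = 1.18e-07 and 6.99e-08). Gbp2 stood at 60.3, 67.8 and 80.3 CPM in 3wk PBS, 248, 470 and 884 in 3wk HDM, 65.4, 83.9 and 123.5 in 11wk PBS.AIR and 76.7, 132.1 and 269 in 11wk HDM.AIR. These 2 genes resemble each other closely, so their counts may share reads, as may those of the Oas and Ifit families and of the immunoglobulin variable genes below. Irf1, a transcription factor of the pathway, differed by -1.10 ± 0.17 (adjusted p = 8.83e-07), and Ciita, the master regulator of MHC class II genes, by -1.46 ± 0.20 (adjusted p = 1.19e-07). Ido1, which degrades tryptophan, differed by -2.56 ± 0.65 (adjusted p = 0.00123). Ido1 did not pass in the covariate fit. Ifng itself, at most 9.60 CPM in 3wk HDM and 5.97 in 11wk HDM.AIR, had a difference of -0.91 ± 0.51 that did not pass (adjusted p = 0.138), and neither did the receptor gene Cxcr3 (-0.10 ± 0.20, adjusted p = 0.692).

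The genes of the type I interferon response had a lower HDM effect at 11 weeks almost throughout. Of 20 tested, 19 passed lower and none higher, with a median of -1.05. The rise of 14 faded and the effect of 5 turned, and the HDM groups were lower at 11 weeks for 20 of 20. Only 3 passed lower in the covariate fit, with a median of -0.47, and 15 did with the ribosomal protein share.

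Isg15, a ubiquitin-like protein that is joined to other proteins during antiviral responses, stood at 18.7, 20.8 and 25.1 CPM in 3wk PBS, 72.4, 104.8 and 302 in 3wk HDM, 12.9, 17.7 and 21.4 in 11wk PBS.AIR and 12.9, 25.1 and 59.5 in 11wk HDM.AIR. At 11 weeks the HDM libraries overlapped with their controls, whereas at 3 weeks every HDM library was above every control. Its effect of 2.45 ± 0.22 at 3 weeks and 0.63 ± 0.24 at 11 weeks gave a difference of -1.82 ± 0.33 (adjusted p = 1.58e-05). Ifit1, which binds viral RNA caps, was at 17.3, 22.6 and 24.6 CPM in 3wk PBS, 33.6, 62.001 and 157.1 in 3wk HDM, 20.5, 27.1 and 32.1 in 11wk PBS.AIR and 13.1, 24.4 and 48.1 in 11wk HDM.AIR, a difference of -1.65 ± 0.28 (adjusted p = 4.48e-06). Similar differences were seen for Oasl1 (-2.005 ± 0.45), Oas3 (-1.97 ± 0.46), which belongs to the sensors of double-stranded RNA, Rsad2 (-1.62 ± 0.39) and Irf7 (-1.42 ± 0.26), the factor that amplifies interferon production, with adjusted p = 0.000314, 0.000483, 0.000767 and 1.52e-05. Mx1 was the member that did not pass (-0.63 ± 0.29, adjusted p = 0.0669). Of the genes named here Ifit1 passed in the covariate fit (-1.02, adjusted p = 0.0269), and Isg15, Oasl1, Oas3, Rsad2 and Irf7 did not.

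As a description, promoters of passing members of both interferon lists were searched for an interferon motif. It is the letters GAAA, 2 bases of any kind (NN) and GAAA again. Both strands of the 250 bases before the start of each gene were searched (RefSeq sequence, GRCm38.p6). A gene was counted when any of its promoters held the motif. It was present in 4 of the 6 passing interferon gamma members that had a promoter sequence (66.7%), in 6 of 14 of the type I list (42.9%) and in 3.46% of all 27025 genes. Both lists were written as interferon response genes, so a high share can follow from membership and does not bear on the duration difference. Members that did not pass were not compared. A match describes the sequence only. The promoters of 4 members described above are shown because they hold the motif, which is in capitals, in GAAA or TTTC orientation. The coordinates are of the printed bases.
Cxcl10, chr5:92348890-92349139, minus strand: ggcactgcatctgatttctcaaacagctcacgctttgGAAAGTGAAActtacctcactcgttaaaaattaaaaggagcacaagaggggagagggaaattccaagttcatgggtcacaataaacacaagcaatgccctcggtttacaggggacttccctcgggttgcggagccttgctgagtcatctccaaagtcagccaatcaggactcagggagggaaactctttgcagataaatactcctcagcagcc
Gbp2, chr3:142620413-142620662, plus strand: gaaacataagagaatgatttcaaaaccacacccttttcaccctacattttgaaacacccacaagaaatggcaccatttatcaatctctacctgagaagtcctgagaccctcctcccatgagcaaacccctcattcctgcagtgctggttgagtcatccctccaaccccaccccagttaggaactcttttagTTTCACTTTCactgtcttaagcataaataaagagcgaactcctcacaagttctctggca
Isg15, chr4:156200819-156201068, minus strand: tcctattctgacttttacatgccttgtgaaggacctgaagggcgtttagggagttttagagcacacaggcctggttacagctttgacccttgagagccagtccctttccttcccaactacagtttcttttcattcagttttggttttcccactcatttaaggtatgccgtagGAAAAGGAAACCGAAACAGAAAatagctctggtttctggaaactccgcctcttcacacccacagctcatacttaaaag
Ifit1, chr19:34640639-34640888, plus strand: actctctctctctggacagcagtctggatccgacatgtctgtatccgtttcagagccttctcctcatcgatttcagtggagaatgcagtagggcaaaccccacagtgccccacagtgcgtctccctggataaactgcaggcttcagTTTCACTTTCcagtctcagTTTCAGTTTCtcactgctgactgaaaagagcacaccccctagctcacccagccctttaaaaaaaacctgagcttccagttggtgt
In Cxcl10 the motif began 213 bases before the start, in Gbp2 59 bases before it. Isg15 held 3 overlapping matches, 78, 72 and 66 bases before its start, and Ifit1 held 2.

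Proliferation genes faded as well. Of 24 cell cycle genes 19 passed lower and none higher, all of them as a rise that was smaller at 11 weeks, with a median of -0.71. Top2a, the topoisomerase that untangles DNA before division, stood at 6.57, 8.48 and 13.7 CPM in 3wk PBS, 46.96, 68.5 and 96.8 in 3wk HDM, 8.03, 14.3 and 19.6 in 11wk PBS.AIR and 29, 35.3 and 68.1 in 11wk HDM.AIR. HDM libraries were above the controls at both durations, and its difference was -1.33 ± 0.23 (adjusted p = 5.35e-06). Foxm1, which drives the genes of mitosis, Rrm2, a subunit of ribonucleotide reductase, and Mki67, the usual marker of cycling cells, differed by -1.05 ± 0.17, -1.05 ± 0.24 and -0.67 ± 0.22 (adjusted p = 3.58e-06, 0.000416 and 0.0117). With the mitochondrial share as a covariate 4 of the 24 passed lower (median -0.52), Top2a and Foxm1 among them but not Rrm2 or Mki67.

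The CCAAT box, a promoter element common in cell cycle genes (letters CCAAT, both strands), was counted in the same way. It was present in all 15 of the passing cell cycle members that had a promoter sequence and in 37.5% of all genes. The box was also in 4 of 6 interferon gamma members and 5 of 14 type I members. A second element, TTTGAA, was in 6 of the 15 against 18.3% of all genes. TTTGAA was not particular to this list, being in 3 of 5 passing members of the alternatively activated macrophage list described below. It was in 2 of 6 interferon gamma and 1 of 14 type I members. The list was written from known cell cycle genes, so these shares do not bear on the duration difference. The promoter of Top2a is shown because it holds 6 CCAAT boxes, in capitals, which read ATTGG where they lie on the opposite strand.
Top2a, chr11:99024190-99024439, minus strand: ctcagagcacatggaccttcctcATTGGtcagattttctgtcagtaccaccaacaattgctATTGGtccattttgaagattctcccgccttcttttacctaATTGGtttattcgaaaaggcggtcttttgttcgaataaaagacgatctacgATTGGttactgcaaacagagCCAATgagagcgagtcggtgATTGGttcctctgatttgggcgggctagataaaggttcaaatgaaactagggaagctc
The first box began 227 bases and the last 58 bases before the start of the gene.

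**Figure D3:**
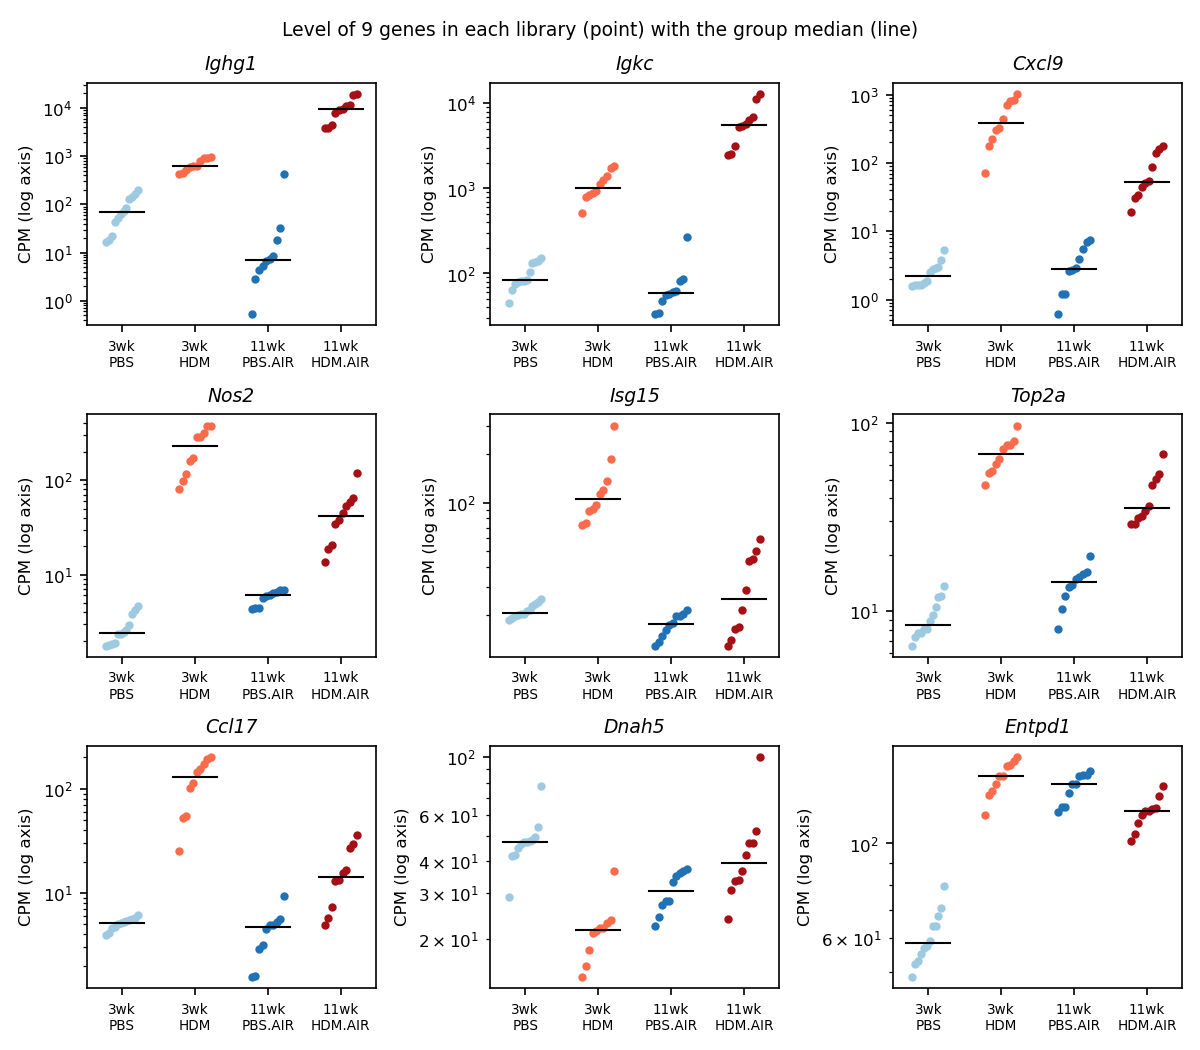
Each panel gives 1 gene, each point is the CPM of 1 library on a log axis, each line is the group median, and the 4 groups lie along the x axis. Ighg1 was highest in 11wk HDM.AIR (median 9291 CPM), whereas Nos2 (median 228) and Cxcl9 (median 381) were highest in 3wk HDM, and for Entpd1 the 3wk PBS group lay below the other 3.

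Genes of alternatively activated macrophages, which respond to IL-4 and IL-13, had mostly smaller rises at 11 weeks. Of 15 tested, 7 passed lower and 2 higher, with a median of -1.26, and in the covariate fit 11 passed lower and 1 higher. Ccl17, a chemokine that attracts CCR4-bearing T helper 2 cells, stood at 3.92, 5.19 and 6.17 CPM in 3wk PBS, 25.3, 130 and 202.1 in 3wk HDM, 1.55, 4.74 and 9.30 in 11wk PBS.AIR and 4.98, 14.4 and 36.1 in 11wk HDM.AIR. The 2 HDM groups overlapped only between 25.3 and 36.1 CPM. Its difference was -2.45 ± 0.60 (adjusted p = 0.000858). Arg1, the arginase of these macrophages, was at 1.5, 2.62 and 3.94 CPM in 3wk PBS, 55.1, 222 and 326 in 3wk HDM, 1.15, 1.94 and 6.28 in 11wk PBS.AIR and 4.11, 24.8 and 143.4 in 11wk HDM.AIR, and differed by -2.56 ± 0.84 (adjusted p = 0.0108). Libraries of either HDM group were widely spread for Arg1. Ccl22, the partner chemokine of Ccl17, Chil3, a chitinase-like protein, and Pdcd1lg2, an inhibitory ligand of T cells, differed by -1.64 ± 0.35, -1.80 ± 0.57 and -1.90 ± 0.46 (adjusted p = 0.000175, 0.0079 and 0.000752). Clec10a, a lectin of dendritic cells and macrophages, and Socs2, a brake on cytokine signalling, passed higher, at 0.90 ± 0.16 and 0.38 ± 0.13 (adjusted p = 1.45e-05 and 0.0135), the value of Socs2 being -0.11 in the covariate fit. Retnla (-0.15 ± 0.59, adjusted p = 0.85) and Mrc1 (-0.21 ± 0.23, adjusted p = 0.463) did not pass, but both passed lower in the covariate fit (-2.19, adjusted p = 0.011, and -0.90, adjusted p = 0.0148). Arg1 missed the threshold with the CPM minimum of 10. Retnla, an abundant secreted product of these cells, had medians of 1934 CPM in 3wk HDM and 888 in 11wk HDM.AIR. The list overlaps with that of arginine and nitric oxide metabolism, of which 10 of 13 passed lower and none higher, through Nos2 and Arg1 among others.

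Among 11 eosinophil and eotaxin genes 6 passed lower and none higher (median -0.86), and 8 did in the covariate fit. Ccl24, an eotaxin, stood at 0.724, 1.06 and 1.59 CPM in 3wk PBS, 2.09, 20.6 and 42.01 in 3wk HDM, 0.377, 0.979 and 1.64 in 11wk PBS.AIR and 0.550, 0.971 and 5.26 in 11wk HDM.AIR, with a difference of -3.30 ± 0.97 (adjusted p = 0.00477). The HDM groups overlapped. Ccr3, the receptor of the eotaxins, differed by -2.12 ± 0.44 (adjusted p = 0.000124), Siglecf, a lectin of eosinophils and alveolar macrophages, by -0.86 ± 0.21 (adjusted p = 0.000904) and Alox15, a lipoxygenase, by -1.70 ± 0.48 (adjusted p = 0.00289). Ccl11, another eotaxin, did not pass (-0.29 ± 0.81, adjusted p = 0.786) but did in the covariate fit (-2.26, adjusted p = 0.041), with medians of 26.1 CPM in 3wk HDM and 13.2 in 11wk HDM.AIR. Of the type 2 cytokines and receptors, 3 of 14 passed higher and 2 lower, both under the 23.7% and 26.1% of all genes. In the covariate fit none passed higher and 4 lower. Il13 passed lower and was called, with differences of -2.25 to -1.72 when single libraries were left out. It was low throughout, at most 2.35 CPM in 3wk HDM and 0.954 in 11wk HDM.AIR. Il13 also passed in the covariate fit (-3.76, adjusted p = 0.000403), but not with the ribosomal protein share as a covariate. Il4 had a difference of -0.65 ± 0.43 that did not pass (adjusted p = 0.204), and neither did Il33, the epithelial alarmin (-0.17 ± 0.22, adjusted p = 0.541). Il4ra, the receptor chain shared by IL-4 and IL-13, differed by -0.76 ± 0.14 (adjusted p = 1.41e-05). Il17rb, the IL-25 receptor, passed higher (1.47 ± 0.34, adjusted p = 0.000507). In the covariate fit Il4 passed lower (-1.5, adjusted p = 0.0316), while Il4ra (-0.44, adjusted p = 0.0629) and Il17rb (0.74, adjusted p = 0.239) did not pass.

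Neutrophil and monocyte genes also had smaller rises. Of 18 neutrophil genes 8 passed lower and none higher (median -0.90), but only 1 did in the covariate fit. Ngp, a granule protein of immature neutrophils, stood at 0.153, 0.479 and 0.952 CPM in 3wk PBS, 0.842, 1.76 and 8.70 in 3wk HDM, 0.238, 0.721 and 1.23 in 11wk PBS.AIR and 0.236, 0.774 and 2.13 in 11wk HDM.AIR, a difference of -1.96 ± 0.53 (adjusted p = 0.00221). Il1b, the main secreted form of IL-1, differed by -1.21 ± 0.34 (adjusted p = 0.00302) and its decoy receptor Il1r2 by -1.72 ± 0.57 (adjusted p = 0.0115). S100a8, a subunit of the calprotectin of mature neutrophils, did not pass (-0.44 ± 0.36, adjusted p = 0.32), and neither did Ngp, Il1b or Il1r2 in the covariate fit (adjusted p = 0.421, 0.302 and 0.469). Of 13 monocyte chemokines and receptors 8 passed lower and none higher, all as fading rises, with a median of -0.98, and 5 did in the covariate fit. Ccl2 and Ccl7, which call CCR2-bearing monocytes into tissue, differed by -1.83 ± 0.58 and -1.96 ± 0.54 (adjusted p = 0.00852 and 0.00241), but neither passed with the CPM minimum of 10, nor Ccl2 in the covariate fit (-1.07, adjusted p = 0.254). Ccl2 reached 18.1, 29.4 and 64.9 CPM in 3wk HDM and 2.86, 5.63 and 16.5 in 11wk HDM.AIR, from 1.33, 1.90 and 2.28 in 3wk PBS and 0.548, 1.34 and 2.58 in 11wk PBS.AIR.

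SPI1 (PU.1) is the transcription factor that directs myeloid cells, and Spi1 and 4 genes followed downstream of it all passed lower, each as a fading rise. This list was taken from the study, which chose it with these samples, so it is not independent evidence of a direction. Spi1 stood at 13.8, 18.004 and 37.6 CPM in 3wk PBS, 97.7, 125.2 and 157.7 in 3wk HDM, 19.996, 28.2 and 33.7 in 11wk PBS.AIR and 50.6, 71.1 and 109.1 in 11wk HDM.AIR, and differed by -1.22 ± 0.20 (adjusted p = 2.38e-06). The HDM libraries were above their controls at both durations. Il1rn, the IL-1 receptor antagonist, Ptafr, the receptor of platelet-activating factor, Itgax, an integrin of dendritic cells and alveolar macrophages, and Clec7a, the beta-glucan receptor, differed by -1.62 ± 0.27, -0.91 ± 0.21, -0.75 ± 0.19 and -0.55 ± 0.18 (adjusted p = 5.62e-06, 0.000407, 0.000974 and 0.0115). With the mitochondrial share as a covariate 3 of the 5 passed, without Ptafr and Clec7a. Of 16 myeloid transcription factors 10 passed lower and 1 higher, Cebpe, which drives late granulocyte maturation, by -2.01 ± 0.67 (adjusted p = 0.0118) and Irf8, needed for monocytes and dendritic cells, by -0.57 ± 0.12 (adjusted p = 9.44e-05). Only 6 of them passed lower in the covariate fit, where Irf8 did not (-0.15, adjusted p = 0.425).

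Genes of antigen presentation mostly had lower HDM effects at 11 weeks. Of 13 MHC class II genes 10 passed lower and 1 higher (median -0.67), and 3 passed lower in the covariate fit. Cd74, the invariant chain that escorts class II molecules, differed by -0.99 ± 0.18 (adjusted p = 1.34e-05), H2-Ab1, a class II chain, by -0.80 ± 0.20 (adjusted p = 0.000931) and Cd40, the costimulatory receptor, by -1.26 ± 0.17 (adjusted p = 6.79e-08). Of 23 T cell and checkpoint genes 6 passed lower, the same share as the 26.1% of all genes, and none higher, and with the covariate 1 passed lower and 3 higher. Cd40lg, the signal by which helper T cells activate B cells, differed by -1.09 ± 0.28 and Cd4, their coreceptor, by -1.01 ± 0.27 (adjusted p = 0.00108 and 0.00168). Of 14 cytotoxic lymphocyte genes 6 passed lower, among them Gzmb (granzyme B) at -1.44 ± 0.22 (adjusted p = 1.07e-06), and 3 higher, among them Klrd1, a receptor of natural killer cells, at 0.74 ± 0.17 (adjusted p = 0.000386). Of 19 complement genes 9 passed lower and 4 higher. The counts higher in this list and in the cytotoxic list were near the 23.7% of all genes. C4b, which is cleaved in the classical pathway, differed by 1.09 ± 0.15 (adjusted p = 2.26e-07) and Masp1, a protease of the lectin pathway, by -2.55 ± 0.44 (adjusted p = 6.46e-06). Of the IL-17 and IL-1 axis 8 of 15 passed lower and 2 higher, with Nlrp3, the inflammasome sensor, at -1.79 ± 0.34 and Il1a at -1.65 ± 0.26 (adjusted p = 4.08e-05 and 2.05e-06). The members that passed higher were Il17f and Il18. Il17f also passed in the covariate fit (3.49, adjusted p = 0.0115), but not with edgeR, with DESeq2 or with the ribosomal protein share as a covariate. The covariate fit left 1 cytotoxic gene lower and 1 higher, 3 complement genes lower and 3 higher, and 3 genes of the IL-17 and IL-1 axis lower and 2 higher. H2-Ab1, Cd40lg, Cd4 and Nlrp3 did not pass in it (adjusted p = 0.163, 0.19, 0.506 and 0.134). Klrd1 missed the threshold with the length and GC trend removed and with the ribosomal protein share as a covariate.

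**Figure D4:**
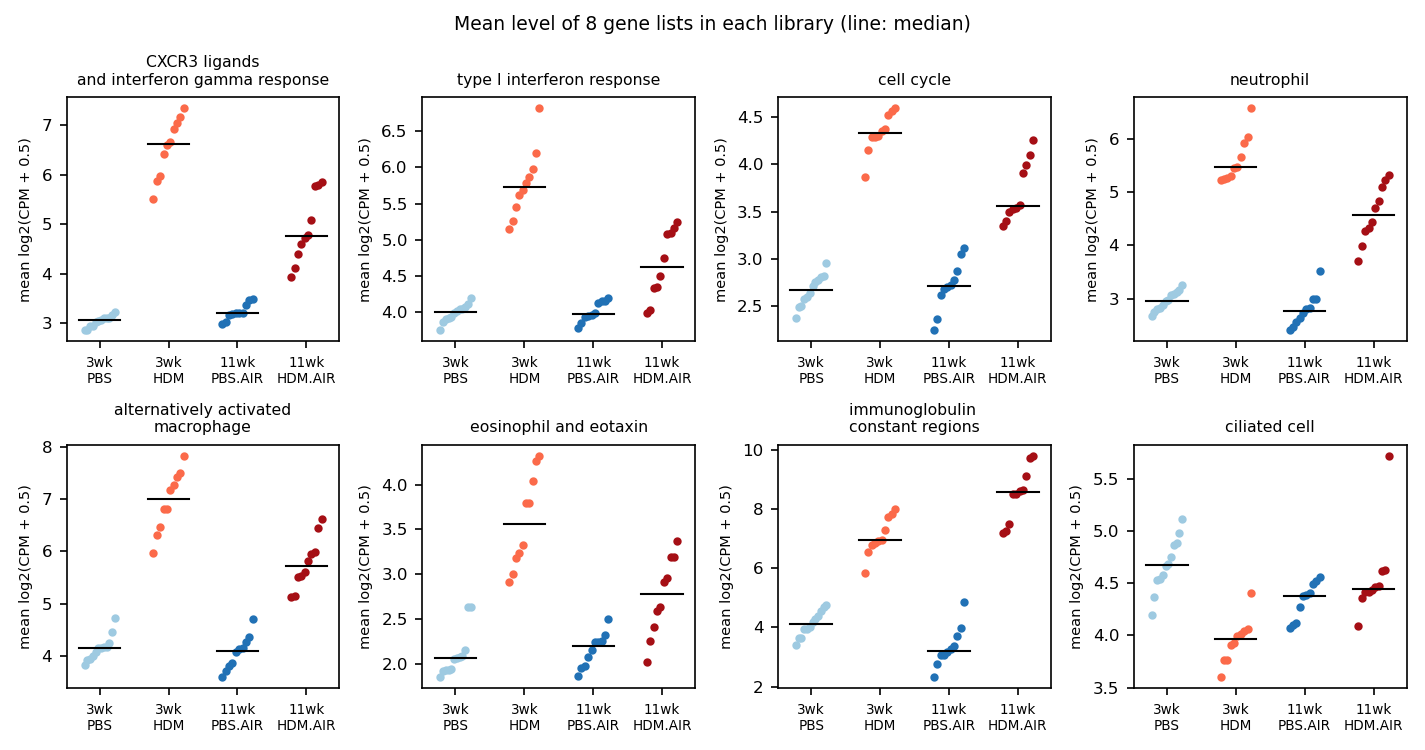
Each point is the mean of log2(CPM + 0.5) over the tested members of a gene list in 1 library, the line is the group median and the x axis gives the 4 groups. The immunoglobulin constant regions were highest in 11wk HDM.AIR (median 8.56), the ciliated cell list was lowest in 3wk HDM (median 3.96), and the other 6 lists were highest in 3wk HDM, as for the CXCR3 ligands and interferon gamma responses (median 6.62).

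Antibody genes went the other way, with an HDM effect that was larger after longer exposure. Of the 9 immunoglobulin constant regions tested 6 passed higher and none lower, against 23.7% of all genes, with a median of 2.53, and the same count passed in the covariate fit (median 3.000). Ighg1 (chr12:113325240-113330523, GRCm38), the heavy chain of IgG1, the class that mouse B cells switch to under IL-4, stood at 16.6, 67.98 and 202.9 CPM in 3wk PBS, 429, 628 and 956 in 3wk HDM, 0.524, 7.07 and 434 in 11wk PBS.AIR and 3891, 9291 and 19385 in 11wk HDM.AIR. Every 11wk HDM.AIR library was above every 3wk HDM library, and most 11wk PBS.AIR libraries were below the 3wk PBS libraries. The effect went from 3.40 ± 0.50 to 9.92 ± 0.71, a difference of 6.52 ± 0.87 (adjusted p = 8.08e-08). Igkc, the kappa light chain shared by most mouse antibodies, was at 45.3, 83.02 and 152.4 CPM in 3wk PBS, 518, 1024 and 1861 in 3wk HDM, 33.1, 59.2 and 269 in 11wk PBS.AIR and 2452, 5592 and 12900 in 11wk HDM.AIR, and differed by 2.88 ± 0.44 (adjusted p = 9.02e-07). The lambda gene Iglc2 (2.58 ± 0.35), Ighg2b (2.53 ± 0.85), Igha (1.75 ± 0.46) and Ighm (1.09 ± 0.25), the heavy chains of IgG2b, IgA and IgM, passed as well (adjusted p = 1.35e-07, 0.0124, 0.00158 and 0.000328). The difference of Ighg2b did not pass with the ribosomal protein share as a covariate. Of the immunoglobulin variable and constant genes tested 62 passed higher (34.3%) and none lower (median 2.29 over all of them). The 62 held 31 of 81 kappa variable genes and 19 of 77 heavy variable genes, the latter near the 23.7% of all genes that passed higher. All 62 were among the 1012 genes called higher.

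Genes of the cells that make antibody had smaller differences. Of 24 B cell and plasma cell genes 16 passed higher and none lower, all with an effect that grew, with a median of 0.58. The median change between the durations was 0.10 in the HDM groups and -0.61 in the PBS groups, and 5 of the 16 changed more in HDM. With the mitochondrial share as a covariate 11 passed higher and with the ribosomal protein share 9. Plasma cell genes led the list. Jchain, the peptide that joins IgA and IgM into polymers, stood at 47.03, 89.7 and 215 CPM in 3wk PBS, 783, 1237 and 2135 in 3wk HDM, 22.8, 66.8 and 248 in 11wk PBS.AIR and 2158, 5134 and 11035 in 11wk HDM.AIR, a difference of 2.86 ± 0.49 (adjusted p = 6.72e-06). Tnfrsf17 (BCMA), a survival receptor of plasma cells, differed by 2.60 ± 0.56 and Mzb1, a chaperone of antibody secretion, by 1.76 ± 0.40 (adjusted p = 0.000159 and 0.000323). Xbp1, the factor behind the secretory apparatus, differed by 0.36 ± 0.11 (adjusted p = 0.00767). The B cell gene Pax5 differed by 0.78 ± 0.28 (adjusted p = 0.0194), and its levels were lower at 11 weeks under HDM and PBS alike, with 5.62, 7.74 and 11.05 CPM in 3wk HDM and 3.37, 4.76 and 5.91 in 11wk HDM.AIR against 4.25, 7.07 and 13.5 in 3wk PBS and 1.17, 2.5 and 4.59 in 11wk PBS.AIR. Pax5 and Xbp1 did not pass in the covariate fit.

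**Figure D5:**
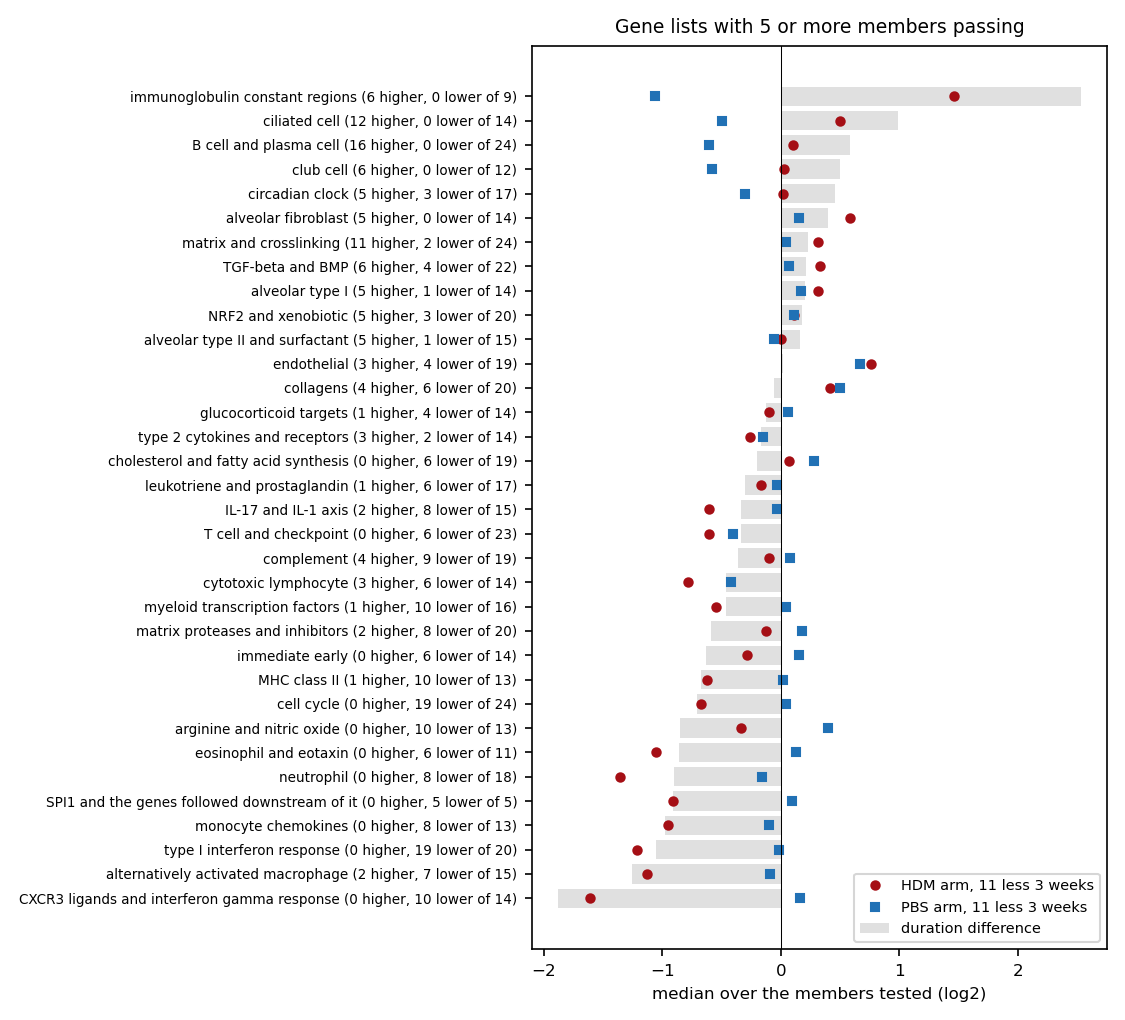
Each bar is the median duration difference (log2) over the tested members of a gene list with 5 or more members passing, and circles and squares give the median change from 3 to 11 weeks in the HDM and PBS groups. The interferon gamma list lay lowest, with a median of -1.88 and an HDM change of -1.61, and the immunoglobulin constant regions highest, with a median of 2.53.

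Genes of the small-airway epithelium had a higher HDM effect at 11 weeks, in part or mainly because the controls were lower. The list median was -0.78 at 3 weeks and 0.25 at 11 weeks for ciliated cells, and -1.01 and -0.34 for club cells. The median change between the durations was 0.50 in the HDM groups and -0.50 in the PBS groups for ciliated cells. For club cells it was 0.03 and -0.58. Among the genes that passed, 6 ciliated and 2 club cell genes changed more in HDM. Of 14 ciliated cell genes 12 passed higher and none lower, 11 of them with an effect that turned, with a median of 0.99, and 9 did in the covariate fit. Dnah5, a motor subunit of motile cilia, stood at 29.1, 47.3 and 77.6 CPM in 3wk PBS, 14.3, 21.8 and 36.5 in 3wk HDM, 22.4, 30.5 and 37.4 in 11wk PBS.AIR and 23.95, 39.3 and 100 in 11wk HDM.AIR. Its effect went from -1.14 ± 0.17 to 0.44 ± 0.17, a difference of 1.58 ± 0.23 (adjusted p = 5.65e-07). Ccdc113, another gene of the cilium, differed by 1.35 ± 0.23 (adjusted p = 4.7e-06), while Foxj1, the factor that starts the ciliary programme, did not pass (0.38 ± 0.21, adjusted p = 0.126). Of 12 club cell genes 6 passed higher and none lower, and 3 did with the covariate. Scgb3a2, a secretoglobin of club cells, was at 649, 1109 and 1425 CPM in 3wk PBS, 150.6, 201.4 and 316 in 3wk HDM, 281, 389 and 489 in 11wk PBS.AIR and 186.5, 241 and 1015 in 11wk HDM.AIR, and differed by 1.80 ± 0.27 (adjusted p = 5.35e-07). Scgb3a1 (1.75 ± 0.49) and Cyp2f2 (1.06 ± 0.16), a cytochrome P450 of these cells, passed as well (adjusted p = 0.00278 and 5.05e-07), Scgb3a1 not with either covariate. Of 15 goblet cell and mucus genes 1 passed lower and none higher, but 6 passed lower in the covariate fit (median -1.41). Muc5ac, the mucin induced in allergic airways, was at 5.77, 26.9 and 62.2 CPM in 3wk HDM and 4.03, 8.10 and 28.3 in 11wk HDM.AIR, against 0.591, 1.28 and 10.03 in 3wk PBS and 0.559, 1.06 and 2.14 in 11wk PBS.AIR, and its difference of -1.22 ± 0.79 did not pass (adjusted p = 0.199), although it did in the covariate fit (-2.88, adjusted p = 0.00915).

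Alveolar and endothelial genes passed in both directions. Of 14 alveolar type I genes 5 passed higher and 1 lower, and of 15 alveolar type II genes 5 and 1. Of 19 endothelial genes 3 and 4 did, under the 23.7% higher and 26.1% lower of all genes, so the endothelial list as a whole did not stand out. Car4, an enzyme of lung capillaries, differed by -0.84 ± 0.28 and Pecam1, a junction protein of endothelium, by -0.80 ± 0.15 (adjusted p = 0.0135 and 1.98e-05), of which Car4 did not pass in the covariate fit, while Emcn, a mucin-like endothelial protein, passed higher (0.75 ± 0.14, adjusted p = 1.51e-05). Lpcat1, which makes surfactant lipid, passed higher (0.64 ± 0.11, adjusted p = 9.35e-06), as did Cxcl15, a secreted product of type II cells (0.88 ± 0.25, adjusted p = 0.0036).

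Fibroblast and matrix genes were mostly higher where they passed. Of 14 alveolar fibroblast genes 5 passed higher and none lower, each as a fall that faded. Of all genes 23.7% passed higher and 26.1% lower. Gdf10, a BMP-related ligand, stood at 5.01, 7.64 and 9.29 CPM in 3wk PBS, 0.401, 1.05 and 1.55 in 3wk HDM, 4.37, 6.08 and 9.002 in 11wk PBS.AIR and 2.16, 4.38 and 6.17 in 11wk HDM.AIR, a difference of 2.37 ± 0.27 (adjusted p = 2.44e-09). Itga8, an integrin of the same cells, differed by 1.32 ± 0.21 (adjusted p = 1.88e-06). Of 24 genes of matrix and crosslinking 11 passed higher and 2 lower. Mfap5, a microfibril protein, was at 10.2, 13.9 and 16.3 CPM in 3wk PBS, 7.29, 9.54 and 14.7 in 3wk HDM, 10.1, 13.8 and 16.9 in 11wk PBS.AIR and 17.4, 27.1 and 31.8 in 11wk HDM.AIR, and differed by 1.32 ± 0.17 (adjusted p = 4.18e-08). Thbs2, a matricellular protein, and Dcn, a small proteoglycan that binds collagen, differed by 1.56 ± 0.33 and 1.13 ± 0.30 (adjusted p = 0.000131 and 0.00177). Eln, elastin, went lower by -1.90 ± 0.34 (adjusted p = 1.27e-05), with 6.49, 13.5 and 25.4 CPM in 3wk PBS, 34.3, 46.2 and 97.8 in 3wk HDM, 34.3, 44.5 and 127.7 in 11wk PBS.AIR and 36.9, 54.6 and 113.8 in 11wk HDM.AIR, so that the controls moved more (2.06 ± 0.25) than the HDM groups (0.16 ± 0.22), and in the covariate fit it did not pass (-0.87, adjusted p = 0.0927).

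Collagen genes did not share a direction, and their counts were near the shares of all genes (23.7% higher, 26.1% lower). Of 20 tested 4 passed higher and 6 lower, none of them a fibrillar collagen, and 2 and 2 did in the covariate fit. Col1a1 and Col3a1, the fibrillar chains of collagens I and III, did not pass (-0.10 ± 0.25 and 0.24 ± 0.18, adjusted p = 0.767 and 0.266). The levels of Col1a1 were 22.5, 32.02 and 43.6 CPM in 3wk PBS, 43.3, 75.6 and 127.2 in 3wk HDM, 34.8, 45.2 and 63.3 in 11wk PBS.AIR and 55.8, 100.6 and 180 in 11wk HDM.AIR. Among matrix proteases and inhibitors 2 of 20 passed higher and 8 lower, with Timp1, an inhibitor of matrix metalloproteinases, at -2.03 ± 0.55 (adjusted p = 0.00228, and 0.0528 in the covariate fit), while Mmp12, the elastase of macrophages, did not pass (-0.08 ± 0.39, adjusted p = 0.875). Of 22 genes of TGF-beta and BMP signalling 6 passed higher and 4 lower, near or under the same shares of all genes. Tgfb1, the growth factor at the head of the pathway, differed by -1.21 ± 0.17 (adjusted p = 2.53e-07), with 18.8, 24.1 and 36.5 CPM in 3wk PBS, 65.1, 90.5 and 101.6 in 3wk HDM, 37.9, 50.9 and 65.8 in 11wk PBS.AIR and 46.6, 75.7 and 101.4 in 11wk HDM.AIR.

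Clock genes passed about as often as other genes, and those that passed differed mainly through the controls. Of 17 clock genes 5 passed higher and 3 lower (median 0.46), near or under the 23.7% and 26.1% of all genes. Only 1 of those that passed changed more in HDM. A larger change in PBS was also common among all genes that passed, at 63.5% of those higher and 70.6% of those lower. In the covariate fit 1 clock gene passed higher and 3 lower (median -0.38). Dbp, an output of the clock, stood at 105.5, 130 and 158.7 CPM in 3wk PBS, 11.2, 19.5 and 32.4 in 3wk HDM, 4.60, 7.72 and 70.7 in 11wk PBS.AIR and 3.998, 7.12 and 19.1 in 11wk HDM.AIR, and differed by 2.05 ± 0.52 (adjusted p = 0.00105), the change between the durations being -3.19 ± 0.33 in the PBS groups and -1.13 ± 0.40 in the HDM groups. Its difference was smaller in the covariate fit and did not pass (0.26, adjusted p = 0.764). Nr1d1 (REV-ERB alpha), a repressor in the clock loop, differed by 2.28 ± 0.66 (adjusted p = 0.00374), but did not pass with edgeR, with DESeq2 or in the covariate fit. The labels do not give the hour of dissection.

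Of the remaining lists, the immediate early genes (6 of 14 lower, none higher) were above the 26.1% of all genes that passed lower, and the adipose genes (4 of 7 higher, none lower) above the 23.7% that passed higher. In the covariate fit 4 and 1 of them passed. The counts were nearer to those shares, or under them, for leukotriene and prostaglandin genes (6 of 17 lower, 1 higher), cholesterol and fatty acid synthesis (6 of 19 lower, none higher), glucocorticoid targets (4 of 14 lower, 1 higher), lymphoid tissue chemokines (4 of 15 lower, none higher), endothelial adhesion molecules (2 of 11 lower, none higher), NRF2 and xenobiotic genes (5 of 20 higher, 3 lower), smooth muscle (3 of 13 higher, 1 lower) and cardiac muscle (2 of 15 higher, none lower). For lipid-handling macrophages 1 of 18 passed higher and 2 lower. The adipose result leaned on single libraries, since in 11wk HDM.AIR X70 had a mean log2(CPM + 0.5) of 2.5 against a median of 1.05. The adipose gene Adipoq did not pass without X70 and X90, nor in 25 of 42 fits that left out 1 library. Fabp4 and Cidea did not pass with both tissues in the fit. No gene of the blood, thymocyte, cartilage, mesothelium and skeletal muscle lists passed, and 1 did among mast cell and basophil genes (lower) and among squamous and basal epithelium genes (higher). Of the immediate early genes, which are switched on within minutes of a stimulus, Fosb differed by -1.78 ± 0.34 and the heat shock gene Hspa1b by -1.45 ± 0.51 (adjusted p = 3.74e-05 and 0.0168), Hspa1b not when other parenchyma or airway libraries were in the fit.

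The smallest p-values of all belonged to genes in which the 3wk PBS controls stood apart. Entpd1 (chr19:40612366-40741602, GRCm38) encodes CD39, which breaks down extracellular ATP, and stood at 48.6, 58.4 and 79.7 CPM in 3wk PBS, 116.4, 143.8 and 159.3 in 3wk HDM, 118.4, 137.7 and 147.8 in 11wk PBS.AIR and 101.2, 118.9 and 136.1 in 11wk HDM.AIR. Its effect turned from 1.24 ± 0.07 to -0.19 ± 0.07, a difference of -1.43 ± 0.10 (adjusted p = 3e-14), of which the PBS groups made up 1.16 ± 0.07 and the HDM groups -0.27 ± 0.07. Nfkb1, a subunit of NF-kB, was at 49.4, 56.8 and 79.4 CPM in 3wk PBS, 137.99, 164.1 and 180.6 in 3wk HDM, 99.6, 109.2 and 123.2 in 11wk PBS.AIR and 112.8, 127.7 and 146.01 in 11wk HDM.AIR, and differed by -1.24 ± 0.09 (adjusted p = 6.43e-13). In both genes all 11wk PBS.AIR libraries were above all 3wk PBS libraries, while the 2 HDM groups overlapped. Ptpn1, a tyrosine phosphatase, and Limk1, a kinase of the actin skeleton, differed by -1.28 ± 0.10 and -1.17 ± 0.10, and Fgfr2, a fibroblast growth factor receptor, went higher by 0.85 ± 0.08 (adjusted p = 4.08e-12, 4.08e-12 and 2.44e-11).

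Large differences outside the antibody genes were of several kinds. The largest were those of Pcdha4 (5.10 ± 0.88), Gm20425 (-4.48 ± 0.47) and Gm15056 (-4.28 ± 1.21), with adjusted p = 7.47e-06, 4.75e-10 and 0.00314. Pcdha4, a protocadherin whose locus shares exons with its neighbours, stood at 7.89, 28.9 and 38.1 CPM in 3wk PBS and at most 2.86 in the other groups. Gm20425, a predicted gene, was at 0.224, 0.532 and 13.1 CPM in 3wk PBS and at least 9.67 in the other groups. All 3wk PBS libraries were above the others for Pcdha4, and most were below them for Gm20425. Gm15056, another predicted gene, was at 48.8, 110 and 198.9 CPM in 3wk HDM and 2.17, 8.74 and 35.2 in 11wk HDM.AIR, and it did not pass in the covariate fit (-3.08, adjusted p = 0.0741). Fut1, a fucosyltransferase, stood at 0.0429, 0.0959 and 0.194 CPM in 3wk PBS, 0.241, 0.470 and 0.577 in 3wk HDM, 0, 0.0360 and 0.0913 in 11wk PBS.AIR and 1.32, 2.25 and 5.23 in 11wk HDM.AIR, a difference of 3.78 ± 0.55 (adjusted p = 3.64e-07). All 11wk HDM.AIR libraries were above all 3wk HDM libraries. No control library held more than 8 counts of Fut1 or Oosp1, so the size of their differences depends on the small value that voom adds to each count. Oosp1 had 0.214, 0.490 and 1.09 CPM in 3wk HDM and 1.39, 3.18 and 7.18 in 11wk HDM.AIR (3.55 ± 0.71, adjusted p = 7.06e-05). Fa2h, which hydroxylates fatty acids, differed by 2.65 ± 0.68 and Shisa3 by 2.91 ± 0.72 (adjusted p = 0.00128 and 0.000867), Fa2h not passing in the covariate fit. Rbp7, a retinol-binding protein, was at 0.671, 1.39 and 2.25 CPM in 3wk PBS, 0, 0.0762 and 0.405 in 3wk HDM, 0.913, 1.49 and 2.47 in 11wk PBS.AIR and 0.353, 0.623 and 1.15 in 11wk HDM.AIR, and its fall faded by 2.92 ± 0.51 (adjusted p = 8.62e-06). On the lower side Cbln1, a secreted protein best known from synapses, was at 11.9, 24.3 and 40.7 CPM in 3wk HDM and 0.344, 3.11 and 12.4 in 11wk HDM.AIR, with controls of at most 0.120 and 0.476 CPM, and Prok2, a chemokine-like ligand of neutrophils, at 0.233, 0.686 and 3.09 and 0, 0.102 and 0.339 CPM, with controls of at most 0.153 and 0.122 CPM. Both passed (adjusted p = 0.0108 and 0.00363), Prok2 not with either covariate, and no fold is given for them because 3wk PBS held at most 4 counts of either in a library.

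A small number of genes had strong effects of opposite sign. Of the 1787 genes called, 11 had effects of at least 1 in size at both durations with opposite signs, 7 of them higher and 4 lower. Krt5, the keratin of basal cells, stood at 0, 0.253 and 0.842 CPM in 3wk PBS, 0, 0.0771 and 1.12 in 3wk HDM, 0, 0.0521 and 0.442 in 11wk PBS.AIR and 0.206, 0.391 and 1.58 in 11wk HDM.AIR, and its difference was 3.69 ± 0.93 (adjusted p = 0.00106), which did not pass with both tissues in the fit or in the covariate fit (1.60, adjusted p = 0.385). At these levels, with libraries at 0 in 3 of the 4 groups, the groups overlapped. Zfp366, a zinc finger regulator of dendritic cells, differed by -2.96 ± 0.32 (adjusted p = 8.47e-10), from 1.79 ± 0.27 to -1.17 ± 0.16.

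The airway libraries of the same exposures (41 libraries) allowed the duration difference to be compared between the tissues. In a fit of all 83 libraries 447 of 17981 genes (2.49%) had a different duration difference in parenchyma and airway, 372 higher and 75 lower in parenchyma. Of these, 409 also passed in the parenchyma, where 49.8% of all genes tested did. The parenchyma difference is itself a term of the tissue comparison, so this overlap is in part built in. The clearest group was the cilia, where 8 of 14 genes were higher in parenchyma and the list median was 0.99 in parenchyma and -0.30 in airway. For Dnah5 the tissues differed by 1.72 ± 0.42 (adjusted p = 0.0247). No member of the interferon gamma, type I interferon, cell cycle or immunoglobulin constant region lists had a tissue difference that passed, which does not show that the tissues acted alike. Their airway medians were -1.42, -0.96, -0.37 and 2.14. Tgfb1 (-1.01 ± 0.30, adjusted p = 0.0457) and Entpd1 (-0.75 ± 0.19, adjusted p = 0.0274) were among the genes lower in parenchyma.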

How the data were processed

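Lung parenchyma was dissected from female Balb/C mice, and RNA was sequenced as 100-base single reads. The authors deposited expected counts (estimated counts, as RSEM gives) per gene and library, and 20.3% of the values above 0 are not whole. The submitters' processing notes name bcl2fastq 2.20.0.422, STAR 2.5.1b, RSEM 1.2.31, kallisto 0.44.0 and mm10. Identifiers were matched to GENCODE M21 by stable ID (42462 of 43346).

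Counts were rounded. Totals were 18756105 to 35913730 per library. Samples were grouped by the labels, which give each library a code (X1, X2 and so on) but no animal or batch, so p-values measure the spread between libraries. Genes were kept when at least 9 libraries exceeded the CPM equal to 10 counts in the median library. The 42 libraries were fitted with limma-voom (limma 3.58.1, edgeR 4.0.16, R 4.3.3) after TMM normalisation, with 1 coefficient per group, and p-values were adjusted by Benjamini-Hochberg. The CPM printed use TMM library sizes. The tissue comparison fitted 83 libraries in 1 model. No label pairs airway with parenchyma libraries of 1 animal.

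The members, gene lists and named genes were chosen with earlier results of these data known. Genes were named by p, by size, by list, by opposite signs and by tissue difference. Other members the text describes were chosen after their values were seen. On simulated counts for this comparison (16819 genes) 87 of 99 genes changed by 1 on the log2 scale and 96 of 99 changed by 2 passed. Of 16621 unchanged genes 8 did. These counts were drawn independently for each gene and library, and genes with low expected counts were not changed. The simulation therefore covers neither low genes nor shifts in composition that many genes of a library share. Alternatives were other tests (edgeR, DESeq2 1.42.0), normalisations, filters, sets of libraries, covariates and leaving out each library. Promoter sequences came from RefSeq (GRCm38.p6).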

Additional observations from a re-analysis of the deposited data

Results flagged for a closer look

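Over 357 pairs of a named gene and a group of 10 libraries, 17 (4.8%) had 1 library far from the other 9, where chance gives about 1 in 20. In 11wk HDM.AIR, X90 was highest for Scgb3a1 (2865 CPM, median 316), Scgb3a2 (1015 CPM, median 241), Foxj1 (154.5 CPM, median 68.5) and Ccdc113 (23.97 CPM, median 9.63). Also in 11wk HDM.AIR, X150 was highest for Limk1 (28.1 CPM, median 21.6) and X50 lowest for Cbln1 (0.344 CPM, median 3.11). In 11wk PBS.AIR, X126 was highest for Igkc (269 CPM, median 59.2), Jchain (248 CPM, median 66.8) and C4b (92.4 CPM, median 68.3), X66 was highest for Gbp2 (123.5 CPM, median 83.9), and X6 was lowest for Zfp366 (9.16 CPM, median 17.2). In 3wk HDM, X4 was lowest for Cd74 (1934 CPM, median 3953), Irf8 (112.03 CPM, median 157.3) and Ighg2b (29.9 CPM, median 140). In the same group X64 was highest for Il1r2 (130.5 CPM, median 38.4) and lowest for Fut1 (0.241 CPM, median 0.470), and X24 was highest for Zfp366 (9.19 CPM, median 5.25).

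The duration difference differed between parenchyma and airway for 447 genes by the test of that difference in limma. Among the genes named, Dnah5 (1.72) and Ccdc113 (1.42) were higher in parenchyma, and Gm20425 (-2.80), Tgfb1 (-1.01), Entpd1 (-0.75) and Nfkb1 (-0.49) were lower.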

How the results depend on the processing

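Leaving out each library in turn gave 8132 to 8530 genes passing (3819 to 4425 higher, 3955 to 4456 lower) and 1631 to 1888 called (872 to 1130 higher, 699 to 836 lower). With edgeR 8677 and with DESeq2 8814 genes passed. Testing only genes of at least 10 CPM in 9 libraries left 11277 genes, of which 6178 passed, 2910 of them lower, and 594 were called (284 higher, 310 lower). Testing against a difference of 1 in limma gave 83 genes, 24 higher and 59 lower. With the transcript length and GC trend removed 8577 passed and 1699 were called. That setting, the following covariates, and leaving out X70 and X90 (8163 passing), were chosen after seeing the data. With the mitochondrial mRNA share as a covariate 4407 genes passed (1823 higher, 2584 lower) and 1120 were called (664 higher, 456 lower). Of the named genes that passed without it, Socs2 (-0.106), Nr1d2 (-0.39) and Cxcl10 (0.029) changed sign, none of which passed with it. Some genes that passed in neither fit changed sign as well, among them Ifng (0.663), Cxcr3 (0.362) and Col1a1 (0.676). With the ribosomal protein share 6198 passed, 2676 of them higher, 12 against their direction without it. No gene passed in the opposite direction under the other settings. The tissue difference passed for 5.74% of genes with edgeR and 1.09% with the CPM minimum of 10. No code is shared by 2 groups and no label says that neighbouring codes belong together, so the codes pair no libraries. Fitting each run of 20 codes as a replicate block gave 8895 genes passing, and libraries of a run correlated little across groups (median 0.057, 60 pairs, -0.28 to 0.364). Cxcl10 no longer passed without X106. At these depths genes of a few counts per library carry wide errors.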

Other observations

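Within the 3wk HDM group, libraries with higher levels of the alternatively activated macrophage genes had lower levels of the CXCR3 ligands and interferon gamma responses. The mean log2(CPM + 0.5) of the 2 lists correlated at r = -0.82 over the 10 libraries (permutation p = 0.0037, adjusted 0.0074 over 2 relations) and rho = -0.81 (permutation p = 0.00724, adjusted 0.0145). Without X4 and X164, the libraries farthest from the median, r was -0.67. In 11wk HDM.AIR the relation was r = -0.29 (permutation p = 0.421, adjusted 0.421) and rho = -0.37 (permutation p = 0.296, adjusted 0.296), and r was -0.68 without X10 and X30. The relation was noticed in these data before it was tested, so its p-values restate what was seen, and the adjustment does not cover other pairs of lists. X4 was also the highest 3wk HDM library for the goblet mucus list and the lowest for MHC class II. The dose or timing of exposure in single mice was not analysed here.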
